A study of Mus musculus with 6 samples.

Results

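The interleukin-1 (IL-1) family genes described here are 10 named genes of mouse macrophages: the ligands *Il1a*, *Il1b* and *Il18*, the soluble antagonists *Il1rn* and *Il18bp*, the decoy receptor *Il1r2*, and the receptor chains *Il1r1*, *Il1rl1*, *Il1rap* and *Il18rap*. They were chosen by name from the 40481 genes of the deposited count table, all 10 were found in it, and 9 had enough counts to be tested. RNA sequencing measured them in unstimulated bone marrow-derived macrophages (BMDMs), which are macrophages grown from marrow progenitors in medium that supplies the macrophage growth factor, in 3 wild-type and 3 *Scd2*-m/-m libraries. *Scd2* encodes stearoyl-CoA desaturase 2, an enzyme that makes monounsaturated fatty acids. *Scd2*-m/-m mice carry floxed *Scd2* alleles and lysozyme M-Cre, a recombinase expressed from the *Lyz2* gene in myeloid cells, so the deletion is limited to cells in which that promoter has been active. The methods give mice of both sexes aged 2 to 5 months, and the labels give no sex per library. They do not give a strain, and the sources do not say whether the wild-type mice carried Cre or floxed alleles, so an effect of Cre or of the altered *Lyz2* gene cannot be told apart from that of *Scd2*. All cells were differentiated for 5 to 6 days with 10% CMG-conditioned medium and then kept in 2%. The labels do not say that the libraries of a genotype came from separate mice, so p-values measure the spread between these libraries.

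IL-1α and IL-1β both bind the receptor chain IL1R1, which then recruits the accessory chain IL1RAP and signals through MyD88 and IRAK kinases to NF-κB. IL-18 uses a separate receptor pair, and IL-33 signals through IL1RL1 (ST2) together with IL1RAP. The family is restrained from outside the cell by a receptor antagonist that occupies IL1R1 without signalling, by the decoy receptor IL1R2, and by IL-18 binding protein. Macrophages are a main source of IL-1β, whose inactive precursor is cut by caspase-1 in the inflammasome before release.

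Counts assigned to genes summed to between 46285176 and 51316397 in wild-type libraries and between 49420796 and 57629638 in *Scd2*-m/-m libraries. Levels are given as counts per 1000000 counts of a library (CPM), with library totals scaled by TMM factors, and a gene was called changed at a false discovery rate (FDR) below 0.05 in edgeR's quasi-likelihood test over 14778 genes. By that rule 17.5% of the genes tested were called, 9.65% higher and 7.84% lower in *Scd2*-m/-m. *Scd2* itself stood at 66.9, 77.8 and 62.7 CPM in wild-type libraries against 59.5, 38.0 and 39.8 CPM in *Scd2*-m/-m libraries. The groups did not overlap, but the difference was not called (log2 fold change −0.59, SE 0.19, FDR 0.10), and since the sources used here do not name the exons removed from the floxed allele, reads from the remaining exons may be among these counts. *Xist* was at 658 to 842 CPM in all 6 libraries, and of the Y-linked genes *Ddx3y*, *Eif2s3y* and *Kdm5d* had 0 counts, while *Uty* had 6, 0 and 5 counts in the wild-type and 0 in the *Scd2*-m/-m libraries. Y-linked transcripts were thus absent or near 0 in all 6 libraries, although the methods name both sexes. The macrophage markers *Adgre1* and *Csf1r* averaged 3320 and 7030 CPM in wild-type libraries against 2360 and 5410 CPM in *Scd2*-m/-m libraries.

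Of the 10 members, 5 rose (*Il18rap*, *Il1rl1*, *Il1rn*, *Il18bp* and *Il18*), 1 fell (*Il1b*), 3 did not pass the test (*Il1a*, *Il1r1* and *Il1rap*) and *Il1r2* had too few counts to be tested. The shares over all genes tested were 9.65% higher and 7.84% lower. The median log2 fold change of the 9 tested members was 0.598, beside 0.004 over all genes tested. A call with an absolute log2 fold change above 1 was made for 3 members, *Il1b*, *Il18rap* and *Il1rl1*, and for 2.84% of all genes tested. Above 2 the calls were *Il1b* and *Il18rap*, against 0.663% of all genes. In 7 of the 9 tested members the libraries of the genotypes did not overlap in CPM, as was the case for 34.9% of all genes tested. Both the median and these 7 include *Il1a* (log2 fold change 0.69), which entered the test through its higher group. Neither was recomputed without it.

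**Figure D1:**
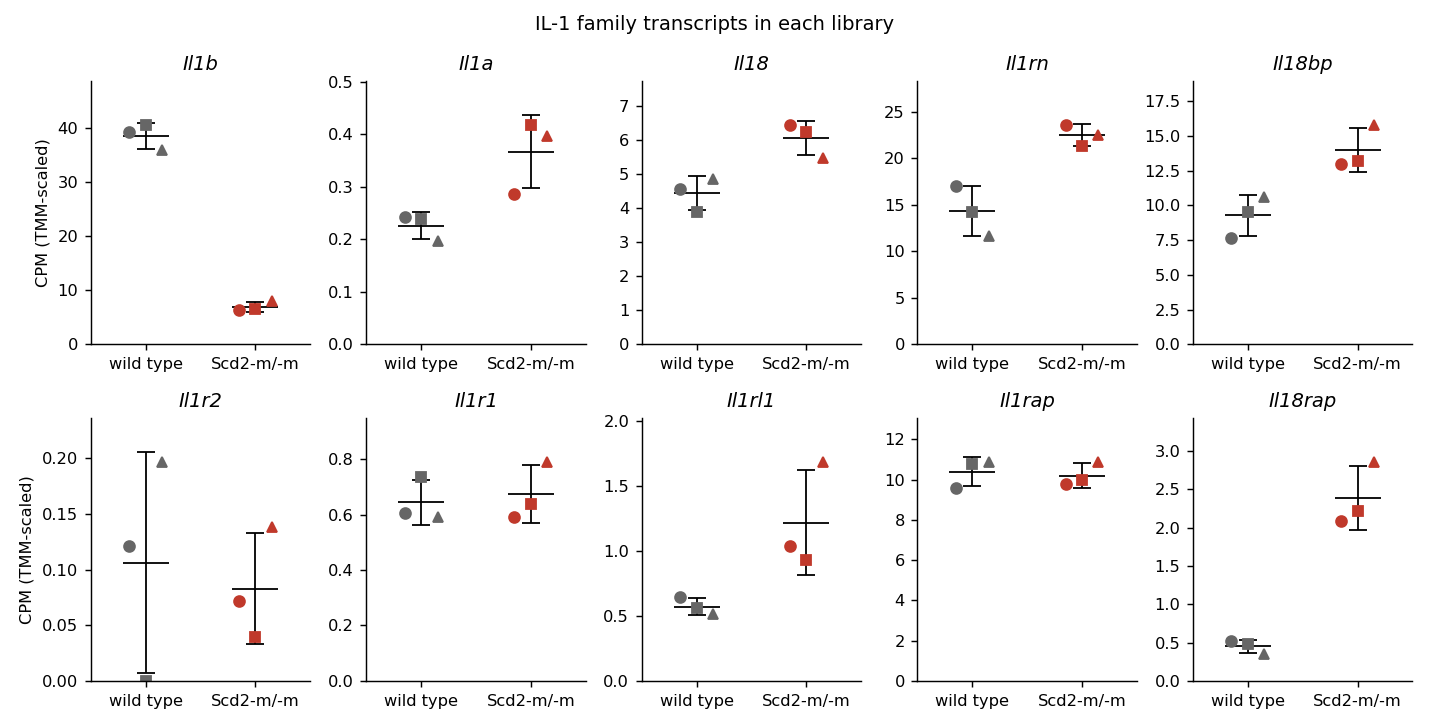
Level of each of the 10 members in CPM (linear axes from 0, a separate scale for each gene), with 1 point per library, circles, squares and triangles for replicates 1, 2 and 3, and the mean ± SD of 3 libraries as bars. The *Il1b* points of *Scd2*-m/-m libraries lie between 6.31 and 7.95 CPM, below all wild-type points, whereas those of *Il18rap* lie between 2.08 and 2.86 CPM, above all wild-type points.

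*Il1b*, which encodes the secreted IL-1β precursor, was the only member that fell. It lies at chr2:129364570-129371139 on the minus strand of GRCm38, and *Il1a* lies beside it, the pair spanning 71.5 kb. To show the start of the member that fell beside that of its neighbour, the 250 bases before each RefSeq transcription start (GRCm38.p6) are printed 5′ to 3′ on the gene's strand, with motif matches in capitals. The *Il1b* window is chr2:129371140-129371389 and holds TATAAA, the TATA box, with its first base 31 bases before the start. The *Il1a* window is chr2:129309973-129310222 and holds TATAAA 32 bases, TGANTCA (the AP-1 motif) 12 bases and GAGGAAG (the PU.1 motif) 41 bases before the start, none overlapping another.
*Il1b*: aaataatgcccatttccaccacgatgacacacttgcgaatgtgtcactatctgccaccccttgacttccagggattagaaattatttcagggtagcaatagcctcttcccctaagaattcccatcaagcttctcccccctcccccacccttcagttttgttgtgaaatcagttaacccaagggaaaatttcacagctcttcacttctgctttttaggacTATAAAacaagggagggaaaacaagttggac
*Il1a*: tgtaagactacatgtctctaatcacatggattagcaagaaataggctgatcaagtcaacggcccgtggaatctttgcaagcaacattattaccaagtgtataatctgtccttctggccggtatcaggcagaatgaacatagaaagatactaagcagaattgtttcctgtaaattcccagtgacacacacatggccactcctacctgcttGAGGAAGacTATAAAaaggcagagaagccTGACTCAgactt
Both strands were searched, and of all 32851 mouse promoter windows of this length 12.4% held TATAAA, 6.75% TGANTCA and 10.6% GAGGAAG.

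The counts of *Il1b* were 1952, 1871 and 1829 in wild-type libraries against 352, 328 and 462 in *Scd2*-m/-m libraries. In CPM these were 39.3, 40.6 and 36.0 against 6.31, 6.53 and 7.95. Every *Scd2*-m/-m library was far below every wild-type library, and within a genotype the libraries were close to each other. The mean went from 38.6 ± 2.37 down to 6.93 ± 0.891 CPM (SD, n = 3 each), which is 5.58-fold lower and left 17.9% of the wild-type level (log2 fold change −2.48, SE 0.09, 95% interval −2.68 to −2.27, FDR 2.79e-09). The call held in 15 of 15 alternative analyses, with log2 fold changes between −2.59 and −2.41. Less RNA per cell and fewer cells that express the gene cannot be told apart in these bulk libraries. Among 8 macrophage markers 4 were also lower (*Lyz2*, *Csf1r*, *Mertk* and *Adgre1*) and 1 was higher (*Cd68*). Their summed level was 36500 to 38100 CPM in wild-type libraries against 21000 to 21800 CPM in *Scd2*-m/-m libraries. Most of that difference came from *Lyz2* (means 22800 and 9030 CPM), the gene that carries the Cre and so no plain measure of macrophage content. The other called markers stood at 77.0% (*Csf1r*), 79.8% (*Mertk*), 71.2% (*Adgre1*) and 117% (*Cd68*) of their wild-type means. The part of marker levels in the fall of *Il1b* was not tested.

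*Il1a* encodes IL-1α, which is active without cleavage and acts as an alarm signal when cells die. It was low, with 12, 11 and 10 counts in wild-type libraries against 16, 21 and 23 in *Scd2*-m/-m libraries. These counts corresponded to 0.242, 0.239 and 0.197 CPM against 0.287, 0.418 and 0.396 CPM. All 3 *Scd2*-m/-m libraries were above the wild-type libraries, the opposite direction to *Il1b*, but the difference was not called (log2 fold change 0.69, SE 0.41, 95% interval −0.18 to 1.57, FDR 0.276). The filter level was reached in 2 wild-type and 3 *Scd2*-m/-m libraries, so the gene entered the test through its higher group. In 14 alternative analyses the FDR lay between 0.115 and 0.512. *Il1a* shares 222 exonic bases with *Gm14023* on the opposite strand, which had 6 to 23 counts per library, and *Il1b* shares 25 with the antisense gene *Il1bos*, which had 0 to 6. The sources used here do not say whether the counting used strand, so reads from these genes cannot be told apart.

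Within a library, the ratio of 2 genes' counts per kilobase (kb) of exon does not depend on how the library is scaled. The ratio of *Il1b* to *Il1a* was 168, 176 and 189 in wild-type libraries against 22.8, 16.2 and 20.8 in *Scd2*-m/-m libraries. *Il1b* was thus the more abundant transcript in all 6 libraries, with a margin that was 9.02-fold smaller in *Scd2*-m/-m (mean log2 ratio 7.47 ± 0.09 against 4.30 ± 0.26, SD, n = 3 each). *Il1b* alone fell 5.58-fold, and the rest of the difference came from *Il1a*, which was not called (FDR 0.276). With 10 to 23 counts of *Il1a* per library, the SD of 3 libraries can understate the counting error of the ratio. The exact two-sided permutation test gave p = 0.1, the smallest value that 3 against 3 libraries allow, and 0.15 after adjustment over the 3 ratios tested.

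*Il1rn* encodes the IL-1 receptor antagonist, made in secreted and intracellular forms from alternative first exons that gene counts do not separate. It lies at chr2:24336853-24351494 on the plus strand. Because the antagonist moved in the opposite direction to the agonist *Il1b*, the 250 bases before 2 of its RefSeq starts are printed, at chr2:24336610-24336859 and at chr2:24345041-24345290. The upstream window holds TGANTCA (capitals) with its first base 141 bases before the start, and the downstream window holds none of the motifs searched.
*Il1rn* upstream start: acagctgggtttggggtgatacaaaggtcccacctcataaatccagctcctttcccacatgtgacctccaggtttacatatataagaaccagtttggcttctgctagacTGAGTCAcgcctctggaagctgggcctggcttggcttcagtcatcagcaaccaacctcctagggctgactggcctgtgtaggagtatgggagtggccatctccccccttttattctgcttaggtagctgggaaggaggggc
*Il1rn* downstream start: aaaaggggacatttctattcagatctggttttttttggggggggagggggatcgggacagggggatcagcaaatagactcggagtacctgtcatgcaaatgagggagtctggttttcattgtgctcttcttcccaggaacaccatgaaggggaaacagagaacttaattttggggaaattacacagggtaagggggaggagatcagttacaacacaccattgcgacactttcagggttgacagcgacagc
The motifs were the 3 named above, TTGCNNAA (C/EBP), GAAANNGAA (the core of the interferon-stimulated response element) and the NF-κB motif, the last 3 of which were in 9.56%, 7.13% and 3.90% of all windows.

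*Il1rn* counts were 843, 653 and 591 in wild-type libraries against 1318, 1069 and 1308 in *Scd2*-m/-m libraries. In CPM these were 17.0, 14.2 and 11.6 against 23.6, 21.3 and 22.5. The lowest *Scd2*-m/-m library was above the highest wild-type library, and the wild-type libraries were the more spread out. The mean rose 1.58-fold, from 14.3 ± 2.68 to 22.5 ± 1.18 CPM (log2 fold change 0.66, SE 0.11, 95% interval 0.41 to 0.90, FDR 0.0015), and the call held in 15 of 15 alternative analyses with log2 fold changes between 0.53 and 0.80.

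The transcript of the antagonist was set against the sum of both IL-1 agonists, again per kb of exon. In wild-type libraries the ratio of *Il1rn* to *Il1a* plus *Il1b* was 0.148, 0.120 and 0.111, and in *Scd2*-m/-m libraries it was 1.24, 1.06 and 0.931. By this measure agonist transcripts outnumbered the antagonist several-fold in every wild-type library, while the *Scd2*-m/-m libraries held about as much of each. The lengths were those of all annotated exons (5.535 kb for *Il1rn*, 1.907 kb for *Il1b*), of which a transcript may hold only a part. Undivided, *Il1rn* in *Scd2*-m/-m libraries had 1069 to 1318 counts beside 328 to 462 for *Il1b*. In wild-type libraries it had 591 to 843 beside 1829 to 1952. The log2 difference between genotypes was 3.09 with and without the division. The mean log2 ratio moved from −3.00 ± 0.22 to 0.09 ± 0.20 (SD, n = 3 each), an 8.53-fold difference (exact two-sided permutation p = 0.1, the smallest possible, 0.15 after adjustment, higher in 3 of 3 libraries). These are ratios of transcripts and not of proteins.

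**Figure D2:**
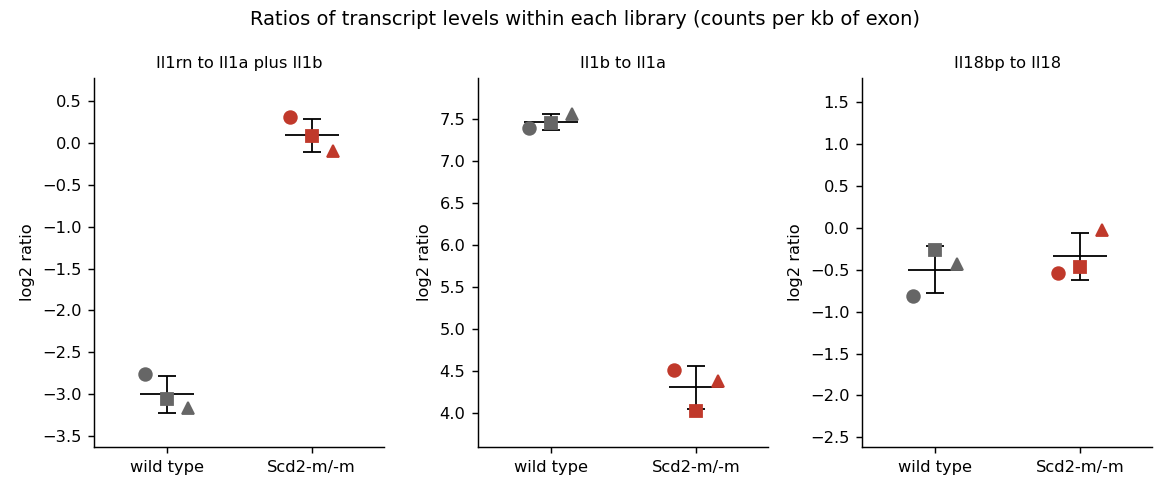
Log2 ratio of transcript levels (counts per kb of exon) within each library for *Il1rn* to *Il1a* plus *Il1b*, *Il1b* to *Il1a*, and *Il18bp* to *Il18*, with points for libraries (circle, square and triangle for replicates 1, 2 and 3), bars for the mean ± SD of 3 libraries, and axes of equal height centred on each ratio. The first ratio is higher and the second is lower in all 3 *Scd2*-m/-m libraries, and the genotypes overlap in the third.

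*Il18* encodes IL-18, a ligand that is also matured by caspase-1 and that drives interferon-γ production by lymphocytes. Its level was 4.57, 3.90 and 4.86 CPM in wild-type libraries against 6.45, 6.25 and 5.49 CPM in *Scd2*-m/-m libraries, from 180 to 247 and from 314 to 360 counts. The groups did not overlap, and the third *Scd2*-m/-m library came nearest to wild type. The mean rose 1.36-fold, from 4.45 ± 0.491 to 6.06 ± 0.507 CPM (log2 fold change 0.45, SE 0.13, 95% interval 0.17 to 0.72, FDR 0.0289). The call was lost without wild-type replicate 2 (0.36, FDR 0.142), without *Scd2*-m/-m replicate 1 (0.40, FDR 0.0840) and without *Scd2*-m/-m replicate 2 (0.42, FDR 0.114), with the direction kept.

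*Il18bp* encodes the soluble protein that binds IL-18 and blocks its receptor contact. It was at 7.68, 9.56 and 10.6 CPM in wild-type libraries against 13.0, 13.2 and 15.8 CPM in *Scd2*-m/-m libraries, with no overlap. The mean rose 1.51-fold, from 9.28 ± 1.48 to 14.0 ± 1.57 CPM (log2 fold change 0.60, SE 0.12, 95% interval 0.34 to 0.86, FDR 0.00361), and this call held in 15 of 15 alternative analyses, between 0.48 and 0.71. *Il18bp* shares 80 of its 3026 exonic bases with the far more abundant *Numa1* on the opposite strand, which had 14499 to 16645 counts and was not called (log2 fold change −0.13, SE 0.06, FDR 0.138). Reads in the shared bases cannot be told apart without strand.

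Ligand and inhibitor of the IL-18 arm both rose, and their ratio per kb of exon was compared as for IL-1. *Il18bp* to *Il18* was 0.572, 0.835 and 0.744 in wild-type libraries against 0.688, 0.723 and 0.984 in *Scd2*-m/-m libraries. The genotypes overlapped, and the 1.11-fold difference of the means was smaller than the spread within either genotype (mean log2 ratio −0.50 ± 0.28 against −0.34 ± 0.28, exact two-sided permutation p = 0.6, 0.6 after adjustment).

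*Il18rap* encodes the accessory chain of the IL-18 receptor, which gives the receptor its high affinity. It showed the largest rise among the members and lies at chr1:40515362-40551705 on the plus strand. Its 250 bases before the start, chr1:40515112-40515361, are printed for that reason, with 2 copies of GAGGAAG (PU.1, capitals) whose first bases are 94 and 79 bases before the start and which do not overlap.
*Il18rap*: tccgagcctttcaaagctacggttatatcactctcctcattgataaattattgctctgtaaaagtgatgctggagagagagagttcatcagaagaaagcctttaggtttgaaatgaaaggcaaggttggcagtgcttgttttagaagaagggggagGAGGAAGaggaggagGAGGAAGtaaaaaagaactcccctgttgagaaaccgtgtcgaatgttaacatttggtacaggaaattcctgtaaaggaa
A match to a motif describes the letters of the window only.

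*Il18rap* had 26, 22 and 18 counts in wild-type libraries against 116, 111 and 166 counts in *Scd2*-m/-m libraries. These were 0.524, 0.477 and 0.354 CPM against 2.08, 2.21 and 2.86 CPM. The groups were widely separated, with the third *Scd2*-m/-m library highest. The mean rose 5.27-fold, from 0.452 ± 0.0876 to 2.38 ± 0.417 CPM (log2 fold change 2.40, SE 0.25, 95% interval 1.86 to 2.93, FDR 1.94e-05), and the call held in 15 of 15 alternative analyses, between 2.24 and 2.52. The partner chain of the IL-18 receptor, *Il18r1*, which binds the ligand, had 2 to 4 counts in wild-type libraries against 6 to 9 counts in *Scd2*-m/-m libraries and was too low to be tested.

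Because T and NK cells express the IL-18 receptor, their markers were read in the same libraries. *Trbc2*, *Ncr1*, *Gzma* and *Prf1* had 0 counts in all 6 libraries, which allows at most 0.00965 CPM over the 6 (3 counts, counting error only). The 11 T and NK markers summed to 0.236 to 0.499 CPM in wild-type libraries against 0.358 to 0.637 CPM in *Scd2*-m/-m libraries, and the 1 that could be tested (*Il2rb*) was not called. *Cd8a* had 0 counts in every wild-type library and 2, 5 and 3 in the *Scd2*-m/-m libraries. In the other direction, *Klrb1c* had 7, 6 and 6 against 6, 6 and 2, and *Cd3d* had 1, 2 and 0 against 0, 2 and 0. Means of *Cd3e*, *Cd3g* and *Nkg7* were higher in *Scd2*-m/-m, each through a single library. All of these were too low to be tested. Of 11 neutrophil markers, 8 were tested, 5 rose (*S100a8*, *S100a9*, *Ngp*, *Ltf* and *Mpo*) and 1 fell (*Csf3r*). Over all genes tested 9.65% were called higher and 7.84% lower. *Mmp8* (lower, log2 fold change −0.31, FDR 0.145) and *Camp* (higher, 0.99, FDR 0.145) had an unadjusted p below 0.05 in edgeR but were not called. The 11 neutrophil markers summed to 183 to 191 CPM in wild-type libraries against 160 to 192 CPM in *Scd2*-m/-m libraries, mostly through *Csf3r*, which averaged 164 and 135 CPM. *Ly6g* had 0 counts in wild-type libraries against 0 to 2 in *Scd2*-m/-m libraries. *Mpo* rose 1.93-fold, *S100a8* 1.96-fold, *Ltf* 2.73-fold, *S100a9* 3.13-fold and *Ngp* 3.35-fold. Of 5 dendritic cell markers all were tested and 2 rose (*Ccr7* and *Flt3*), beside 9.65% of all genes tested. Their list summed to 0.947 to 1.36 CPM in wild-type libraries against 1.75 to 2.96 CPM in *Scd2*-m/-m libraries. Not called were *Xcr1*, which was lower (log2 fold change −0.61, FDR 0.311), and *Zbtb46* (0.68, FDR 0.32) and *Siglech* (1.11, FDR 0.134), which were higher. *Ccr7* had 0, 4 and 3 counts in wild-type libraries against 50, 19 and 45 in *Scd2*-m/-m libraries. *Flt3* had 8, 2 and 10 against 28, 24 and 30, and both entered the test through their higher group. The part of T, NK, neutrophil or dendritic cell transcripts in the rises of *Il18rap* and of the other members was not tested.

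*Il1rl1* encodes ST2, the receptor of IL-33, in a membrane form and a soluble form that acts as a decoy, and the gene counts do not separate them. It had 32, 26 and 26 counts in wild-type libraries against 58, 47 and 98 counts in *Scd2*-m/-m libraries. The levels were 0.645, 0.564 and 0.512 CPM against 1.04, 0.935 and 1.69 CPM. The groups did not overlap, and the third *Scd2*-m/-m library stood well above the other two. The mean rose 2.13-fold, from 0.573 ± 0.0671 to 1.22 ± 0.407 CPM (log2 fold change 1.09, SE 0.30, 95% interval 0.46 to 1.73, FDR 0.0208). The call was lost without wild-type replicate 2 (1.08, FDR 0.0704), without wild-type replicate 3 (1.01, FDR 0.0550) and without *Scd2*-m/-m replicate 3 (0.78, FDR 0.118).

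Mast cells and basophils express much ST2, and their 11 markers summed to 0.954 to 1.35 CPM in wild-type libraries against 1.90 to 2.51 CPM in *Scd2*-m/-m libraries. Of these markers 4 were tested and 0 were called by edgeR, DESeq2 or limma-voom, with 1 higher at an unadjusted p below 0.05 (*Kit*) and 1 called higher by limma-voom with quality weights (*Prss34*). *Kit* (8, 12 and 16 counts in wild-type libraries) and *Prss34* (14, 4 and 10) entered the test through their higher group. *Tpsb2*, *Cma1* and *Mcpt4* had 0 counts in all 6 libraries. *Ms4a2* had 0, 2 and 0 counts in wild-type libraries against 3, 7 and 12 counts in *Scd2*-m/-m libraries, *Cpa3* had 5, 2 and 9 against 10, 9 and 21, and *Kit* had 8, 12 and 16 against 21, 23 and 37. These 3 genes and *Mcpt8* were highest in the *Scd2*-m/-m library in which *Il1rl1* was highest, while *Hdc*, *Prss34*, *Gata2* and *Fcer1a* were highest in other libraries. Their part in the rise of *Il1rl1* was not tested. Lists of B cell, stromal and endothelial markers had 2 (*Cd79a* and *Cd79b*, both higher), 0 and 0 calls by edgeR, DESeq2 and limma-voom alike. *Pdgfrb* among the stromal markers (lower) and *Kdr* among the endothelial markers (higher) had an unadjusted p below 0.05, and *Kdr* was called with quality weights. The 3 lists had sums of 54.1 to 120, 2.81 to 4.43 and 7.44 to 7.89 CPM in wild-type and 83.6 to 116, 3.38 to 3.57 and 8.71 to 9.50 CPM in *Scd2*-m/-m libraries.

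*Il1r1* encodes the signalling receptor for both IL-1 agonists. Its counts were 30, 34 and 30 in wild-type libraries against 33, 32 and 46 in *Scd2*-m/-m libraries, or 0.604, 0.737 and 0.590 CPM against 0.591, 0.637 and 0.791 CPM. The groups overlapped, although the third *Scd2*-m/-m library was above every wild-type library. The means were 0.644 ± 0.0811 and 0.673 ± 0.105 CPM (log2 fold change 0.07, SE 0.30, FDR 0.910), and the 95% interval of −0.57 to 0.71 leaves room for changes in either direction at these counts.

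*Il1rap*, the accessory chain shared by the IL-1 and IL-33 receptors, was far better covered, with 476 to 552 counts in wild-type libraries against 504 to 636 in *Scd2*-m/-m libraries. It stood at 9.59, 10.8 and 10.9 CPM in wild-type libraries against 9.77, 10.0 and 10.9 CPM in *Scd2*-m/-m libraries. The means of 10.4 ± 0.711 and 10.2 ± 0.618 CPM differed by less than the spread between libraries (log2 fold change −0.02, SE 0.10, 95% interval −0.23 to 0.18, FDR 0.908). This was the narrowest interval among the members not called. The antisense gene *Gm20319*, which shares 552 of its exonic bases, had 0 counts in all 6 libraries.

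*Il1r2* encodes the decoy receptor, which binds IL-1β but lacks the signalling domain. It had 6, 0 and 10 counts in wild-type libraries against 4, 2 and 8 counts in *Scd2*-m/-m libraries and reached the filter level in 0 of 6 libraries. The groups overlapped, and a difference was not detectable at this depth. Summed over the libraries, *Il1r2* had 16 counts beside 94 for *Il1r1* in wild-type libraries against 14 beside 111 in *Scd2*-m/-m, and no ratio per library could be formed because a library was at 0.

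**Figure D3:**
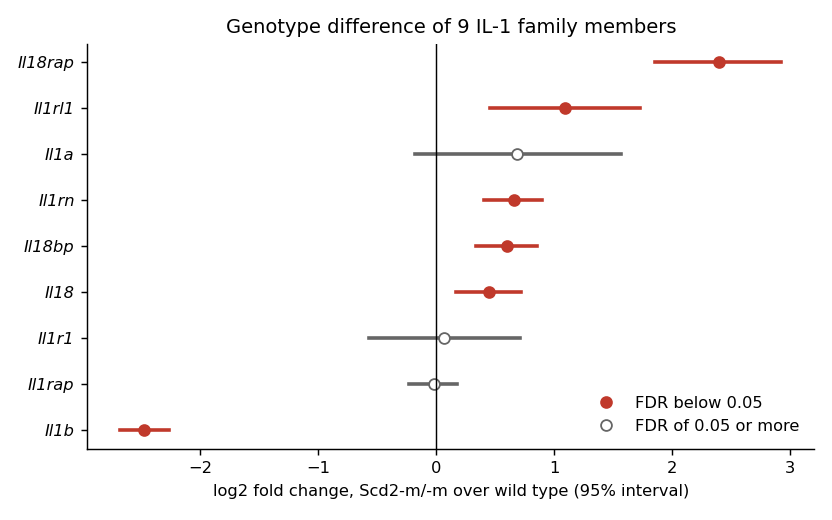
Log2 fold change of the 9 tested members (*Scd2*-m/-m over wild type) as points, with 95% intervals as lines, filled red for FDR below 0.05 and open grey otherwise. *Il1b* lies at −2.48, *Il18rap* at 2.40, and the intervals of *Il1a*, *Il1r1* and *Il1rap* include 0.

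Levels of different genes were compared per kb of exon, in CPM per kb, by the ranges of the 3 libraries. In wild-type libraries *Il1b* led with 20.3 ± 1.24, followed by *Il18* at 4.31 (3.79 to 4.71), *Il18bp* at 3.07 (2.54 to 3.50), *Il1rn* at 2.58 (2.10 to 3.07) and *Il1rap* at 0.916 (0.844 to 0.956). *Il18bp* and *Il1rn* overlapped in that order, and the other neighbours did not. The remaining 5 members, *Il1a*, *Il1r1*, *Il1rl1*, *Il18rap* and *Il1r2*, had means between 0.0555 and 0.114, and each overlapped its neighbour. By this measure agonists and soluble inhibitors stood above the receptor chains in unstimulated wild-type BMDMs, with the exception of the agonist *Il1a*. In CPM not divided by length, however, *Il1rap* averaged 10.4 beside 4.45 for *Il18*, so the order depends on the exon lengths.

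In *Scd2*-m/-m libraries the order at the top changed, and in CPM not divided by length *Il1rn* led with a mean of 22.5. Per kb, *Il18* led with 5.88 (5.32 to 6.26), ahead of *Il18bp* at 4.64 (4.31 to 5.24), *Il1rn* at 4.06 (3.84 to 4.27) and *Il1b* at 3.63 (3.31 to 4.17). *Il1rn* and *Il1b* overlapped. *Il1rap* followed at 0.902 (0.860 to 0.963). *Il18rap*, among the lowest members in wild-type libraries at 0.0669, came next at 0.353 (0.308 to 0.423), above *Il1a* at 0.186 (0.145 to 0.212) and *Il1rl1* at 0.177 (0.136 to 0.245) without overlap, whereas in wild-type libraries it was below *Il1a* and overlapped *Il1rl1*. *Il1r1* at 0.106 (0.0929 to 0.124) and *Il1r2* at 0.0435 (0.0209 to 0.0721) were the lowest.

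**Figure D4:**
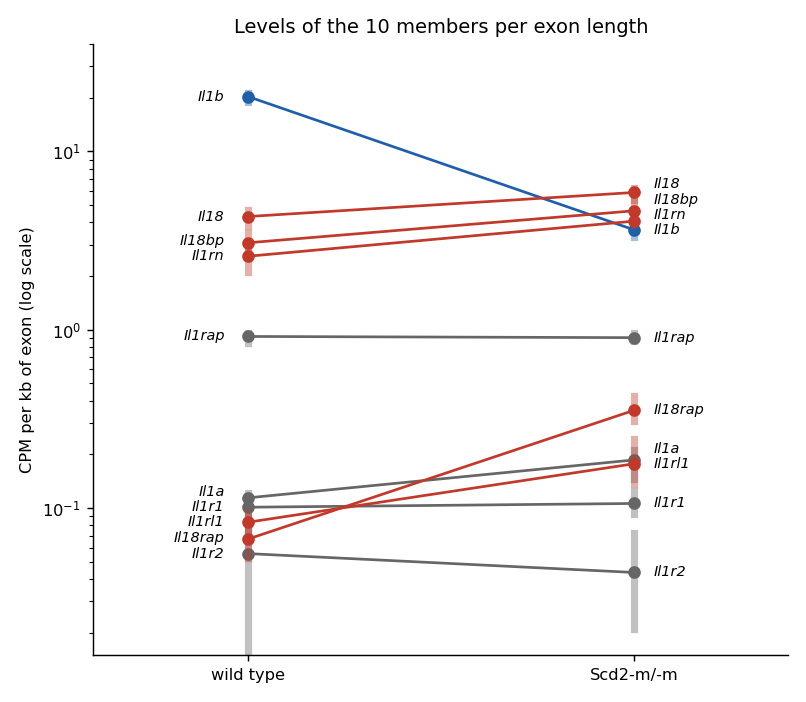
Mean level of the 10 members in CPM per kb of exon on a log axis, joined between genotypes, with vertical bars for the range of 3 libraries, blue for the member called lower, red for those called higher and grey for the rest. *Il1b* moves from 20.3 in wild type to 3.63 in *Scd2*-m/-m, below *Il18*, *Il18bp* and *Il1rn*, and the bar of *Il1r2* in wild type runs off the bottom of the axis because 1 library was at 0.

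*Il1r2*, *Il1r1*, *Il1rl1* and *Il18rap* lie on the same strand of chromosome 1 within 478 kb (chr1:40074079-40551705), an interval that holds 7 genes of the count table. Within it, *Il1rl1* (chr1:40429570-40465415) and *Il18rap* rose, and *Il1r1* (chr1:40225080-40317257) and *Il1rl2* did not pass the test. *Il1r2* (chr1:40074079-40125231), *Il18r1* and the antisense gene *Gm16894* were too low to be tested, with 30, 30 and 15 counts over all 6 libraries. The called genes were those at the distal end of the cluster, on either side of *Il18r1*. Elsewhere, *Il18* lies at chr9:50554827-50581840, *Il18bp* at chr7:102014885-102018690, *Il1rap* at chr16:26581704-26730117 and *Il1a* at chr2:129299610-129309972.

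Of 11 other IL-1 family genes, 2 could be tested and 1 rose. *Sigirr*, which encodes an inhibitory receptor of the family, had 23 to 33 counts in wild-type libraries against 108 to 156 counts in *Scd2*-m/-m libraries. Its mean went from 0.588 ± 0.108 to 2.43 ± 0.504 CPM without overlap (log2 fold change 2.04, SE 0.25, FDR 6.88e-05). *Il1rl2*, the receptor of the IL-36 cytokines, had 10 to 33 and 23 to 40 counts and was not called (log2 fold change 0.40, SE 0.42, FDR 0.575). The ligands *Il33*, *Il36a*, *Il36b*, *Il36rn* and *Il1f10* and the receptor-like gene *Il1rapl2* had 0 counts in all 6 libraries, so that the ligand of the IL1RL1 receptor was not detected beside it. *Il36g* had 0 to 7 counts in wild-type libraries against 2 to 7 in *Scd2*-m/-m libraries, and *Il1rapl1* had 0 against 0 to 2.

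Downstream of the receptors, 21 adaptor, kinase and NF-κB genes were all tested, and 8 fell and 0 rose by edgeR (8 and 0 by DESeq2, 7 and 0 by limma-voom, 12 and 0 with quality weights, and 12 and 0 at an unadjusted p below 0.05), with a median log2 fold change of −0.152. Over all genes tested, edgeR called 7.84% lower and 9.65% higher. *Irak3*, which encodes the inhibitory kinase-like protein IRAK-M, fell from 141 ± 8.92 to 77.8 ± 5.32 CPM (log2 fold change −0.85, SE 0.07, FDR 2.07e-06). *Nfkbiz*, which encodes the IL-1-inducible nuclear protein IκBζ, fell from 112 ± 11.6 to 59.2 ± 4.57 CPM (log2 fold change −0.92, SE 0.08, FDR 4.25e-06). Smaller falls were those of the NF-κB subunit gene *Nfkb1* (−0.38, SE 0.06, FDR 0.000386), its inhibitor and target *Nfkbia* (−0.37, SE 0.07, FDR 0.00234) and the adaptor gene *Myd88* (−0.27, SE 0.06, FDR 0.00961). In each of the 8 the libraries of the genotypes did not overlap, which the call itself makes likely. Among the uncalled genes of the list, *Irak1*, *Tollip*, *Tab3*, *Peli1*, *Peli3* and *Ikbkb* did not overlap either. Over all genes tested, called or not, the share without overlap was 34.9%. The list holds negative as well as positive regulators.

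Among 13 genes for the maturation and release of IL-1β and IL-18, all tested, 4 rose and 2 fell, with a median log2 fold change of 0.058. Over all genes tested 9.65% were called higher and 7.84% lower. *Casp1*, which encodes the protease that cuts both ligands, rose from 52.9 ± 0.866 to 68.3 ± 7.52 CPM (log2 fold change 0.37, SE 0.07, FDR 0.00363). The DNA sensor *Aim2* (0.58, SE 0.08, FDR 0.000241) and the inflammasome adaptor *Pycard* (0.35, SE 0.07, FDR 0.00292) rose with it, whereas the sensor *Nlrp3* fell from 114 ± 3.34 to 91.1 ± 1.98 CPM (−0.32, SE 0.06, FDR 0.00142). *Prtn3*, a neutrophil granule protease that can also cut IL-1β, rose at low counts from 0 to 12 in wild-type to 38 to 67 in *Scd2*-m/-m libraries (log2 fold change 3.07, SE 0.59, FDR 0.00324). With 0, 12 and 5 counts in wild-type libraries, *Prtn3* entered the test through its higher group. *Gsdmd*, which encodes the pore protein through which IL-1β leaves the cell, averaged 98.9 ± 5.66 and 103 ± 0.541 CPM and was not called (log2 fold change 0.06, SE 0.06, FDR 0.563).

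**Figure D5:**
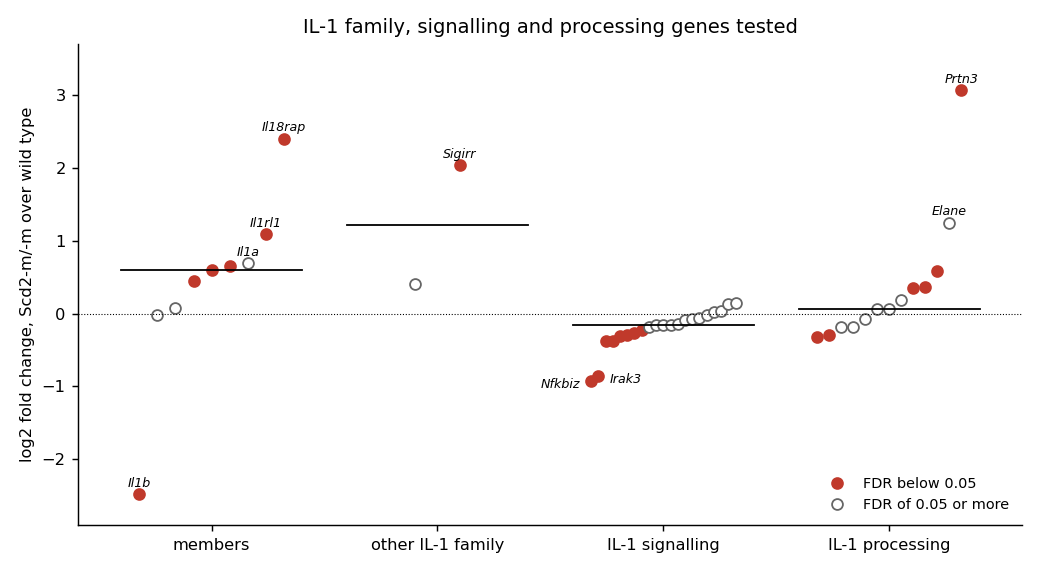
Log2 fold change (*Scd2*-m/-m over wild type) of each tested gene among the 10 members and the lists of 11 other IL-1 family, 21 signalling and 13 processing genes, with filled red points for FDR below 0.05, open points otherwise and a line at each median. *Il1b* lies below every gene shown, the 8 called signalling genes are all below 0, and the called processing genes fall on both sides of 0.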

How the data were processed

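RNA from unstimulated BMDMs was poly(A)-selected and sequenced, with 3 wild-type samples and 3 from *Scd2*-m/-m mice, grouped by the genotype in their labels. The authors aligned reads with STAR to the GRCm38 primary assembly and deposited raw counts per gene. The sources used here do not name the counting tool, its use of strand or what 1 count stands for. Totals of the count table exceed the mean reads per sample in the study's text, so a fragment may have been counted more than once, and halving the counts changed no call among the 8 members that then passed the filter (*Il1a* did not). The deposited table of the authors' own comparison (log2 fold changes, p-values and log2 CPM) was not used. Its edgeR and limma model is not given in full.

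Of 40757 entries, 276 that repeat a gene were removed. Counts were tested with edgeR 4.0.16 (filterByExpr, minimum count 10, TMM factors, glmQLFit with robust estimation, glmQLFTest) in R 4.3.3, with Benjamini-Hochberg adjustment over 14778 genes. SE was taken as the log2 fold change over the root of the F statistic. Intervals are 95% intervals and, like limits for 0 counts, take in no error beyond that between or within these libraries. Ratios used exonic lengths of GENCODE vM21 and exact permutation tests (SciPy 1.17.1). The paper names an Ensembl release for its alignment, so the lengths used for ratios and levels per kb may differ from those behind the counts. The planned ratio of *Il1r2* to *Il1r1* could not be tested, so adjustment was over 3. Promoter sequences are from RefSeq, in which all 10 members had entries, 14 windows in all. Alternatives were RLE and upper-quartile factors, DESeq2 1.42.0, limma-voom (limma 3.58.1) with and without quality weights, other filters and thresholds, halved counts, a replicate block and leaving out each library. The procedure was tested on simulated data. Libraries of a genotype differed by more than the sampling noise of the counts as deposited (chi-square per gene 10.4 to 31.4). This does not show that they came from separate mice. Each library was counted as its own replicate.

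All 10 members were named in the text. Of the other genes, those of the IL-1 family list were all named, and from the signalling and processing lists the 4 called genes of smallest p in each were named with *Casp1*, *Nlrp3*, *Gsdmd* and *Myd88*. Cell type markers named beside a result were chosen after their values were seen. The members and lists were chosen with earlier results of these data known.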

Additional observations from a re-analysis of the deposited data

How the results depend on the processing

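The calls of *Il1b*, *Il1rn*, *Il18bp* and *Il18rap* and the direction of all 6 called members held in all 15 alternatives to the fit, at an FDR below 0.05, and *Il1a* was called in none of 14. The number of members called higher, 5, was 3 to 5 when a library was left out (3 without wild-type replicate 2), 2 with an absolute log2 fold change above 1 (*Il1rn*, *Il18bp* and *Il18* lost) and 1 above 2 (*Il1rl1* also lost). The number called lower stayed at 1. Differences close to 0 changed sign: *Il1r1* was −0.06 with voom quality weights and −0.07 to 0.17 when a library was left out, *Il1rap* was −0.08 to 0.01, with 0.00 without wild-type replicate 2 and 0.01 without wild-type replicate 3 or *Scd2*-m/-m replicate 1, and the log2 difference of *Il18bp* to *Il18* was −0.01 to 0.27, the lowest without *Scd2*-m/-m replicate 3. With quality weights 2325 genes were called higher and 2182 lower, and 2 of the other IL-1 family genes were called. Leaving out a library gave 869 to 1392 higher and 571 to 1175 lower calls over all genes, the lowest without *Scd2*-m/-m replicate 2, and 869 and 621 without wild-type replicate 2. The cause of these shifts was not tested.

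Deviations from the genotype mean correlated at 0.053, −0.02 and 0.04 between same-numbered libraries, against −0.074 to 0.041 between the others. So few values cannot show whether the replicate numbers pair the libraries. With the replicate block, 5 members were called higher and 1 lower, and 1615 and 1359 of all genes, beside 1426 and 1159 without it. The block changed no member's call. *Il1a*, *Il1r1*, *Il1r2*, *Il1rl1* and wild-type *Il18rap* rest on few counts, which limits their precision.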
